A study of Mus musculus with 18 samples.

Results

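Cells build cholesterol, fatty acids and the galactolipids of myelin through pathways whose genes are largely known by name, and 40 of these genes were followed here in HPRT-knockdown and control mouse embryonic stem cells during neuronal differentiation. They comprised 18 enzymes of cholesterol synthesis, Ggps1 of the isoprenoid branch, 6 genes of sterol sensing and transport, 11 enzymes of fatty acid synthesis, desaturation and elongation, and 4 enzymes of myelin sphingolipids. They were chosen by name, and the probe with the highest mean signal over all arrays stood for each gene. Of the 40 genes, 36 had a probe, out of 30869 gene symbols on the array. Hmgcs1, Fdft1, Acaca and Sgms1 matched no probe by symbol and were not analysed here. Ggps1, the synthase of geranylgeranyl diphosphate, was detected on no array, so that at most 35 genes were tested in a comparison.

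The cells were of the ESD3 (D3) embryonic stem cell line, which comes from mouse strain 129s2/SvPas. Control cells carried an shRNA against luciferase and HPRT-knockdown cells an shRNA against HPRT, a purine salvage enzyme, the latter designed on the human gene. The labels call the vector retroviral and the study's methods lentiviral, and both cell types were selected with puromycin. Each was sampled as embryonic stem (ES) cells, which grew on fibroblast feeder cells, as spherical neural masses (SNM), an intermediate of the dopaminergic differentiation protocol, and at the final neuronal stage. Each of the 6 conditions was hybridised to 3 arrays, 18 in all, from 1 RNA pooled over replicate cultures. All errors and p-values below therefore measure the spread between arrays of the same RNA and not between cultures, and a called difference is a difference between RNA pools.

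Sterol synthesis starts from acetyl-CoA, passes through mevalonate to squalene, and closes squalene into the ring that later enzymes trim to cholesterol. When sterols are scarce, the transcription factors encoded by Srebf1 and Srebf2 are escorted by Scap out of the endoplasmic reticulum, where the Insig proteins otherwise hold them, and they raise transcription of sterol and fatty acid enzymes. Oligodendrocytes, the myelinating glia of the brain, use the same pathways at a high rate and add enzymes of their own, which make 2-hydroxylated galactosylceramide and sulfatide.

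Across the whole array, each array detected between 18827 and 22202 of 45281 probes. The targeted gene, listed as Hprt1, was 17-fold lower in knockdown than in control ES cells, 3.39-fold lower in SNM and 21.8-fold lower in neuronal cells (adjusted p = 7.15e-15, 3.86e-11 and 9.64e-17 from limma). Its mean log2 signal in knockdown cells was 7.95 in ES cells, 9.44 in SNM and 6.60 in neuronal cells, so that the knockdown was weakest in SNM. Markers of the labelled neurons were present in both cell types at the neuronal stage, but 2 of 14, Snap25 and Nefl, were detected on no array of the series, and Tubb3, which encodes β-III tubulin, was detected on 3 of 3 control and on 0 of 3 knockdown arrays there. Markers of other cell types are given with the myelin genes below, because they differ between the same conditions.

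Calls required an adjusted p under 0.05 and a difference of 1.5-fold or more (limma, Benjamini-Hochberg over all probes tested). At the ES stage none of 31 lipid genes tested was called in either direction, where 0.516% of all probes were called higher and 1.17% lower. Without a minimum fold, 2 lipid genes were higher (6.45%, against 5.80% of all probes) and 1 was lower (3.23%, against 5.51%), and at an unadjusted p under 0.05 these counts were 4 and 2. At the SNM stage 13 of 34 (38.2%) were called lower in knockdown cells, against 8.90% of all probes, and none was called higher, against 11%. Without a minimum fold, 21 of 34 (61.8%) were lower, against 27.9% of probes, and 4 (11.8%) were higher, against 24.8%. At the neuronal stage 14 of 35 (40%) were called higher, against 13.9%, and 1, Acly, was called lower, against 13.5%. Without a minimum fold, 23 of 35 (65.7%) were higher, against 29.4%. The median log2 difference between knockdown and control cells over the lipid genes was 0.07 in ES cells, -0.47 in SNM and 0.37 in neuronal cells, beside medians of 0.01, -0.04 and 0.01 over all probes tested. The methods' t-test gave 0 calls at the ES stage as well, and 0 calls of a higher signal at the SNM stage.

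**Figure D1:**
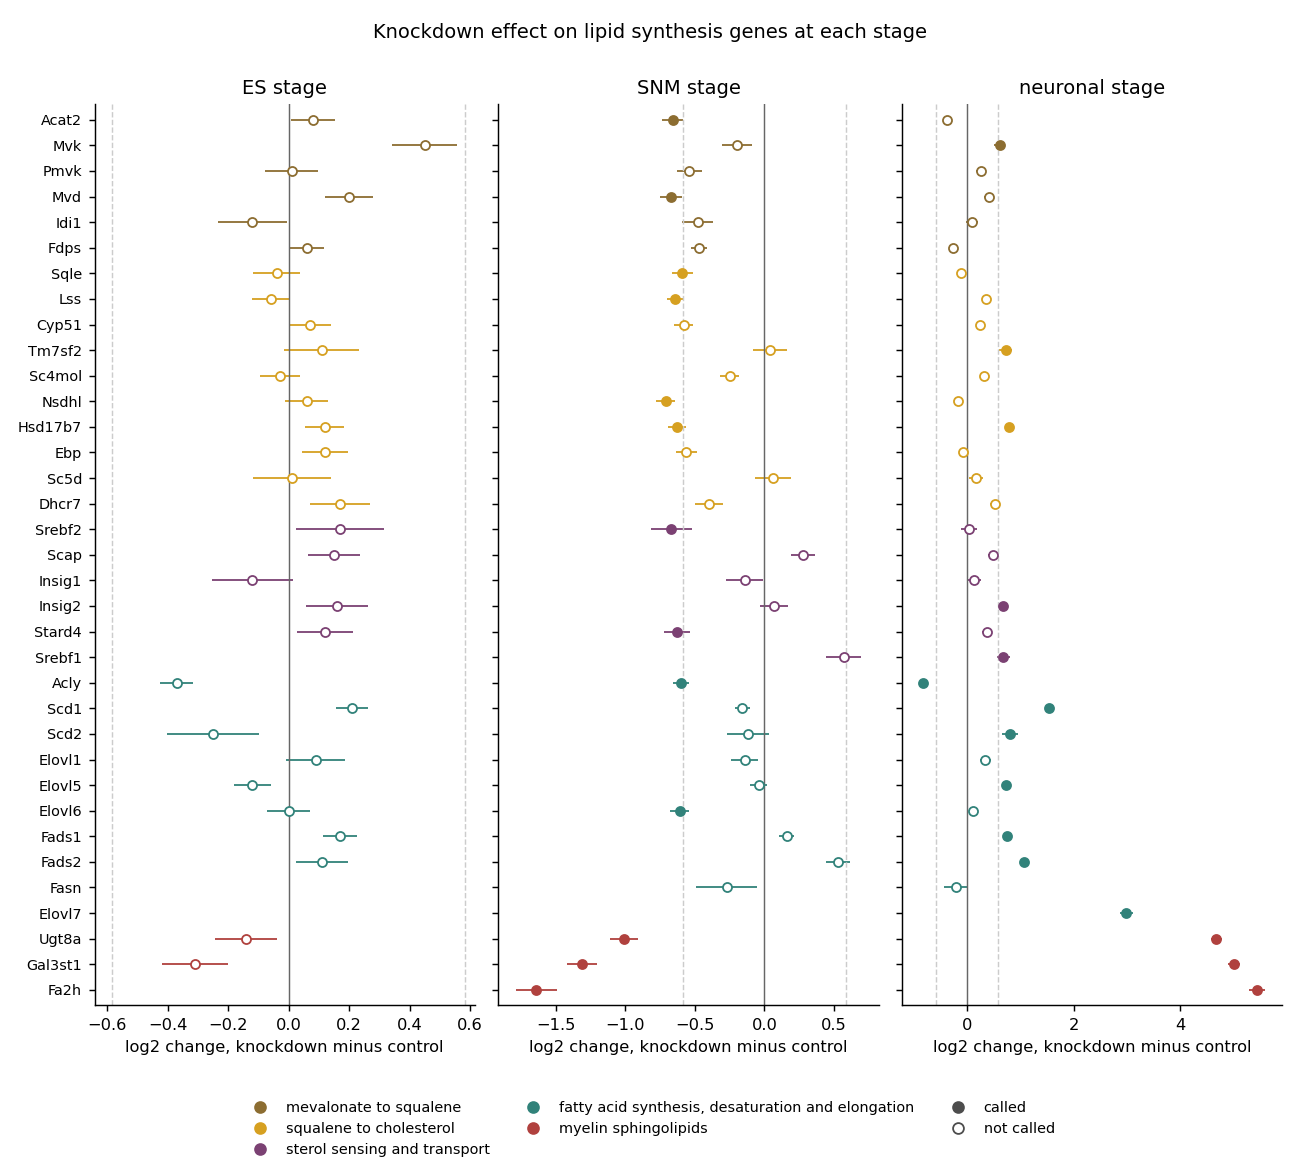
Log2 change between HPRT-knockdown and control cells for the lipid genes tested at each stage (31 in ES cells, 34 in SNM and 35 in neuronal cells). Points carry bars of 1 standard error (3 arrays of 1 RNA pool per condition). Colours give the role, filled points are called, the dashed lines mark 1.5-fold, and the 3 horizontal axes differ in range. The sterol enzymes lie mostly left of 0 at the SNM stage (median -0.55), and Fa2h, Ugt8a and Gal3st1 lie far right at the neuronal stage (5.45, 4.68 and 5.01).

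The 6 measured enzymes from acetyl-CoA to squalene were lower in knockdown cells at the SNM stage by sign. Of them 2, Acat2 and Mvd, were called (33.3%, against 8.90% of all probes). Acat2, a cytosolic thiolase that joins acetyl-CoA units, had log2 signals of 11.35, 11.38 and 11.32 on the control SNM arrays and 10.89, 10.56 and 10.63 on the knockdown SNM arrays. The knockdown arrays all lay below the control arrays, with a log2 change of -0.66 (SE 0.07, adjusted p = 1.80e-06). Mvd, mevalonate diphosphate decarboxylase, had signals of 10.12, 10.11 and 9.95 in control and 9.41, 9.41 and 9.35 in knockdown SNM, again without overlap (log2 change -0.67, SE 0.08, adjusted p = 3.42e-06). Of the other 4, Pmvk (phosphomevalonate kinase), Idi1 (isopentenyl diphosphate isomerase) and Fdps (farnesyl diphosphate synthase) missed the 1.5-fold minimum with log2 changes of -0.54, -0.48 and -0.47, and Mvk (mevalonate kinase) missed the p threshold as well (-0.20, adjusted p = 0.143). A dimmer second probe of Fdps gave 0.25 at the SNM stage (adjusted p = 0.0682), against -0.47 for the brightest.

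These 6 genes did not move one way at the neuronal stage. Mvk was called higher in knockdown cells (5.17, 4.96 and 4.98 in control, 5.76, 5.61 and 5.58 in knockdown; log2 change 0.61, SE 0.11, adjusted p = 1.36e-04). Its arrays did not overlap, but the call was lost without control neuronal array 2, control neuronal array 3 or knockdown neuronal array 1 (0.57, 0.58 and 0.56). The log2 change of Mvk was 0.28 with quantile normalization and no background correction, 0.32 with scaling to the 75th percentile and 0.33 with an offset of 50, and it was called under none of these. Acat2 and Fdps had log2 changes of -0.39 and -0.27, and Mvd of 0.40, all under 1.5-fold. In the ES cells Mvk differed by 0.45 (adjusted p = 0.0143), also under 1.5-fold, and none of the other 5 passed the p threshold.

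Of the 10 measured enzymes that turn squalene into cholesterol, 8 were lower by sign in knockdown SNM and 2 higher. Of the 10, 4 were called lower (40%, against 8.90% of all probes), namely Sqle, Lss, Nsdhl and Hsd17b7. The median change over the 10 was -0.57. Nsdhl, which removes the C4 carboxyl groups of sterol intermediates, read 9.33, 9.22 and 9.16 in control and 8.63, 8.40 and 8.55 in knockdown SNM (log2 change -0.71, SE 0.07, adjusted p = 5.20e-07). All 4 probes for Nsdhl were called lower, with log2 changes between -0.89 and -0.71. Lss, lanosterol synthase, which closes the sterol ring, read 9.76, 9.82 and 9.82 against 9.15, 9.20 and 9.12 (log2 change -0.64, SE 0.06, adjusted p = 3.76e-07). Both genes were thus lower on every knockdown array, by more than the spread within either condition.

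Hsd17b7, a sterol 3-ketoreductase, was called at both later stages and in opposite directions. Its log2 signals were 10.59, 10.58 and 10.77 in control SNM and 10.07, 10.09 and 9.91 in knockdown SNM (log2 change -0.63, SE 0.06, adjusted p = 6.99e-07). At the neuronal stage they were 9.98, 9.91 and 9.92 in control and 10.67, 10.75 and 10.77 in knockdown cells (log2 change 0.79, SE 0.06, adjusted p = 2.35e-08). The knockdown arrays thus lay wholly below the control arrays in SNM and wholly above them at the neuronal stage. Its second, dimmer probe gave -0.67 (called) and 0.56 (not called).

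Sqle, squalene epoxidase, was lower in knockdown SNM by a log2 change of -0.59 (SE 0.08, adjusted p = 9.11e-06), close to the 1.5-fold limit, and gave -0.80 on its second probe. The call for Sqle rested on single arrays: without control SNM array 3, knockdown SNM array 1 or knockdown SNM array 3 its log2 change was -0.55, -0.58 or -0.52. Hsd17b7 lost its SNM call without control SNM array 3 (-0.56) or knockdown SNM array 3 (-0.57). Just outside the limit, Cyp51 (lanosterol 14-demethylase) had a log2 change of -0.58 and Ebp (sterol isomerase) of -0.56, both with adjusted p under the threshold (3.55e-06 and 1.54e-05). Dhcr7, which makes the last reduction of one branch, and Sc4mol (now Msmo1, a C4-methyl oxidase) had changes of -0.40 and -0.25. Sc5d, a sterol desaturase, and Tm7sf2, a sterol 14-reductase, had changes of 0.06 and 0.04 with adjusted p = 0.743 and 0.789.

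In neuronal cells Tm7sf2 and Hsd17b7 were the 2 of 10 called (20%), both higher in the knockdown, against 13.9% of all probes. Tm7sf2 read 6.74, 6.56 and 6.76 in control and 7.53, 7.44 and 7.24 in knockdown cells (log2 change 0.72, SE 0.12, adjusted p = 1.18e-04), with no overlap. With quantile normalization and no background correction its change was 0.52 and the call was lost. The other 8 lay between -0.17 (Nsdhl) and 0.52 (Dhcr7). Of the 16 sterol enzymes together, 3 (18.8%) were called higher, near the 13.9% of all probes, and 0 lower. At an adjusted p under 0.05 with no minimum fold, 9 were higher (56.2%, against 29.4% of all probes) and 3 lower (18.8%).

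The plan was to print promoters of called genes that matched a sterol regulatory element, but no called gene with a promoter entry matched. The promoters of the sterol enzymes called lower in knockdown SNM are shown next instead, because CCAAT boxes, which nuclear factor Y can bind, and GC boxes, which Sp1 can bind, are classical companions of sterol regulatory elements in such genes. They are the 250 bases before the RefSeq start in build GRCm38.p6, 5′ to 3′ on the strand of the gene, with CCAAT (or ATTGG, its reverse complement) in capitals. Shown are all of these enzymes that had a promoter entry, Acat2, Mvd, Lss, Nsdhl and Hsd17b7, and beside them the myelin enzymes Ugt8a and Gal3st1, the latter at the first of its 3 starts, all chosen after their values were seen. They lie at chr17:12960726-12960975 (minus strand), chr8:122443423-122443672 (minus), chr10:76531355-76531604 (plus), chrX:72918271-72918520 (plus), chr1:169969206-169969455 (minus), chr3:125938653-125938902 (minus) and chr11:3983386-3983635 (plus), in this order.
Acat2: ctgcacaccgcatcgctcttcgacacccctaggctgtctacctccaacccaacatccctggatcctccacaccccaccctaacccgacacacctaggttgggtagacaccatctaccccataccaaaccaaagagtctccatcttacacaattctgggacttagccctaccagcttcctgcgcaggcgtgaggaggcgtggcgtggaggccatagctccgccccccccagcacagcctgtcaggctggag
Mvd: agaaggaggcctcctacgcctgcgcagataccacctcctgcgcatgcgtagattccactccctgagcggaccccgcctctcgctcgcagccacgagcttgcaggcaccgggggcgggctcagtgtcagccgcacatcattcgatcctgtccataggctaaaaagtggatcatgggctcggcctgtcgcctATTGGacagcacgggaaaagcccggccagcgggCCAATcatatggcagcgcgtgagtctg
Lss: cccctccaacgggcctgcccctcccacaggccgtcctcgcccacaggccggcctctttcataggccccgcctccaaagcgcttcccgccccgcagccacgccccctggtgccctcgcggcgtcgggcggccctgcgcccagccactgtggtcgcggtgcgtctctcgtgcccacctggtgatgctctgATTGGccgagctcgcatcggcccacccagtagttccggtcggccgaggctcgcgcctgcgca
Nsdhl: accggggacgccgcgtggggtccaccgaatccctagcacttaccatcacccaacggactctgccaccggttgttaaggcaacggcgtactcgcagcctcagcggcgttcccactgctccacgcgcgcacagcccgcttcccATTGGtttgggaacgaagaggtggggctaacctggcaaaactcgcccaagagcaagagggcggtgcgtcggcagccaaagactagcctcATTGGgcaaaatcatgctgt
Hsd17b7: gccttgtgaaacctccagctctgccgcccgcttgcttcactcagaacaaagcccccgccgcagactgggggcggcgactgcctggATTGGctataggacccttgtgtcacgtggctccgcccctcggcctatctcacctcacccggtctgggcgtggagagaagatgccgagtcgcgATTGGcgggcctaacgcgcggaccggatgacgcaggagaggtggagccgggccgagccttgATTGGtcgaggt
Ugt8a: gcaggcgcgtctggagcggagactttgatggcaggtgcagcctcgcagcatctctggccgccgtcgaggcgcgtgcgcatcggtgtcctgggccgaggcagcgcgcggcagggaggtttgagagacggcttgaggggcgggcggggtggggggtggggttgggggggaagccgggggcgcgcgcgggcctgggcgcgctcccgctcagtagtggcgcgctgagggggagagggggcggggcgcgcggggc
Gal3st1: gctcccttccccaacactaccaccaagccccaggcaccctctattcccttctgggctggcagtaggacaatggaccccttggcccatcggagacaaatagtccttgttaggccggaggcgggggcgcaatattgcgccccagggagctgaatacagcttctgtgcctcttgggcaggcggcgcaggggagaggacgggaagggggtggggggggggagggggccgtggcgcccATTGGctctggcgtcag
The 250 bases held 3 CCAAT boxes for Hsd17b7, which began 165, 73 and 12 bases before the start, 2 for Nsdhl (109 and 20 bases), 2 for Mvd (60 and 27 bases), 1 for Lss (62 bases), 1 for Gal3st1 (17 bases) and none for Acat2 or Ugt8a, so that both kinds of enzyme include promoters with and without one.

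Promoters of 300 bases, from 250 before to 50 after the start, were found for 32 of the 40 genes and searched on both strands. CCAAT stood in those of 14 of 15 sterol enzymes (93.3%), with Acat2 the exception, in 4 of 8 fatty acid enzymes (50%) and in 2 of 3 myelin enzymes (66.7%). Over all 27025 genes with a promoter the share was 41.1%, and over the 8301 of them detected on these arrays it was 42.6%. The GC box GGGCGG stood in 14 of 15 sterol enzymes (93.3%), against 38.2% of all genes and 67.6% of detected genes. The sterol regulatory element in the spelling TCACCCCAC stood in 1 of the 32, Hmgcs1, which had no probe, and the looser spelling TCACNCCAC added no other (0.614% and 1.44% of all genes). These are matches of letters and not measured binding, and a promoter without them may hold other spellings.

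The 6 genes of sterol sensing and transport were divided at the SNM stage. Srebf2, which encodes the SREBP that mainly drives sterol enzymes, read 9.49, 9.31 and 9.11 in control and 8.84, 8.76 and 8.30 in knockdown SNM (log2 change -0.67, SE 0.15, adjusted p = 0.00115). Its arrays varied more than those of the enzymes, and it was not called without control SNM array 1 (-0.58) or knockdown SNM array 3 (-0.51), nor on its second probe (-0.52). Stard4, a cytosolic sterol carrier, fell by 0.63 (SE 0.09, adjusted p = 3.67e-05) and was not called without control SNM array 3 (-0.58). Srebf1, which encodes the SREBP that mainly drives fatty acid enzymes, had a change the other way of 0.57 (adjusted p = 0.00133), just under 1.5-fold, and passed it without control SNM array 1 (0.61), knockdown SNM array 1 (0.63) or knockdown SNM array 3 (0.65).

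All 6 were higher by sign at the neuronal stage, and 2, Srebf1 and Insig2, were called (33.3%, against 13.9% of all probes). Srebf1 read 5.39, 5.37 and 5.29 in control and 6.16, 6.12 and 5.83 in knockdown cells (log2 change 0.68, SE 0.13, adjusted p = 2.27e-04), a low signal whose change was 0.41 with an offset of 50. Insig2, a retention protein of the endoplasmic reticulum, read 8.89, 8.99 and 8.86 against 9.45, 9.55 and 9.74 (log2 change 0.67, SE 0.10, adjusted p = 2.83e-05), but it was not called on its second probe (0.48) or on the mean of its probes (0.58). No knockdown array of either gene overlapped the control arrays. Scap and Stard4 had changes of 0.48 and 0.37 and Srebf2 of 0.03 (adjusted p = 0.893).

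Insig1, the sterol-responsive partner of Insig2, depended on the probe. Its brightest probe had changes of -0.14 in SNM and 0.12 in neuronal cells (adjusted p = 0.39 and 0.481). A second, dimmer probe was called in both, at -0.61 and 0.90 (adjusted p = 5.56e-04 and 9.35e-06), and another gave -0.41 (not called) and 0.83 (called, adjusted p = 5.04e-06). Which of them follows the transcript best was not tested.

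Among the enzymes of fatty acid synthesis, the desaturases Scd1, Scd2, Fads1 and Fads2 and the elongases Elovl5 and Elovl7 were called higher in knockdown cells at the neuronal stage and the elongases Elovl1 and Elovl6 were not, while Acly, which makes cytosolic acetyl-CoA from citrate, was lower. Acly read 12.12, 12.16 and 12.15 in control and 11.27, 11.31 and 11.34 in knockdown cells (log2 change -0.84, SE 0.05, adjusted p = 1.66e-09). It was also called lower at the SNM stage (12.64, 12.66 and 12.73 against 12.02, 12.15 and 12.07; log2 change -0.60, adjusted p = 2.09e-07) and differed by -0.37 in ES cells (adjusted p = 5.12e-04), under 1.5-fold. Acly was thus below the control arrays on every knockdown array at all 3 stages, although without control SNM array 3 or knockdown SNM array 1 its SNM change was -0.57, under the minimum.

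Scd1, stearoyl-CoA desaturase, which makes monounsaturated fatty acids, had the largest change of the desaturases. It read 11.50, 11.45 and 11.51 in control and between 12.98 and 13.06 on the 3 knockdown arrays at the neuronal stage (log2 change 1.53, SE 0.05, adjusted p = 6.25e-13), 2.89-fold. Scd2, a second isoform, had a log2 change of 0.81 (SE 0.15, adjusted p = 2.28e-04). Fads2 and Fads1, the Δ6 and Δ5 desaturases of polyunsaturated fatty acids, changed by 1.07 (adjusted p = 2.53e-08) and 0.75 (adjusted p = 7.58e-09), and both probes of Fads2 were called.

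Of the elongases, Elovl5, which lengthens polyunsaturated chains, was called higher (0.72, adjusted p = 4.10e-08), and Elovl7 was measured at the neuronal stage in knockdown cells alone. Elovl7 was detected on 3 of 3 knockdown and 0 of 3 control neuronal arrays, which makes it at least 7.28-fold higher (fitted log2 change 2.99, adjusted p = 5.94e-12), and it was otherwise detected on 2 of 3 control SNM arrays. Elovl1, of very long chains, had 0.34 and Elovl6, which makes stearate from palmitate, 0.10. Elovl6 was called lower at the SNM stage (-0.61, SE 0.07, adjusted p = 2.59e-06), a call not held by its second probe (-0.41, adjusted p = 0.157) or without control SNM array 3 (-0.58) or knockdown SNM array 1 (-0.57). Fasn, the fatty acid synthase itself, had changes of -0.27 and -0.21 at the later stages (adjusted p = 0.328 and 0.44) and was detected on 1 of 3 knockdown neuronal arrays. Among the fatty acid enzymes Fads2 was the furthest above 0 at the SNM stage (0.53), under 1.5-fold.

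The 3 measured enzymes of myelin sphingolipids had the largest log2 changes of the tested lipid genes at both later stages. Fa2h, fatty acid 2-hydroxylase, read 5.03, 5.31 and 4.89 in control and 10.57, 10.60 and 10.41 in knockdown cells at the neuronal stage. Ugt8a, the galactosyltransferase that makes galactosylceramide, read 5.44, 5.51 and 5.20 against 10.04, 10.20 and 9.93. Gal3st1, which sulfates galactosylceramide to sulfatide, read 5.23, 5.07 and 5.11 against 10.24, 10.16 and 10.04. For each gene every knockdown array lay far above every control array.

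The log2 changes at the neuronal stage were 5.45 for Fa2h (SE 0.15, adjusted p = 2.32e-14), 4.68 for Ugt8a (SE 0.10, adjusted p = 1.64e-15) and 5.01 for Gal3st1 (SE 0.11, adjusted p = 1.61e-15), or 43.7-fold, 25.6-fold and 32.2-fold. All 3 probes were detected on every array of that stage. In such bulk samples, fewer cells of a type and less RNA per cell cannot be told apart, and this holds for each difference reported here.

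In SNM the same 3 genes were lower in knockdown cells. Fa2h read 7.88, 7.96 and 7.82 in control and 6.20, 6.44 and 6.09 in knockdown SNM (log2 change -1.64, SE 0.15, adjusted p = 1.65e-07). Gal3st1 fell by 1.31 (SE 0.11, adjusted p = 7.18e-08) and Ugt8a by 1.01 (SE 0.10, adjusted p = 6.14e-07), and no array overlapped for either gene. At the ES stage Ugt8a and Gal3st1 had changes of -0.14 and -0.31 (adjusted p = 0.428 and 0.0788), and Fa2h, detected on 1 of 3 arrays of each cell type, was not tested. A second probe of Ugt8a was not detected on all arrays of any condition.

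**Figure D2:**
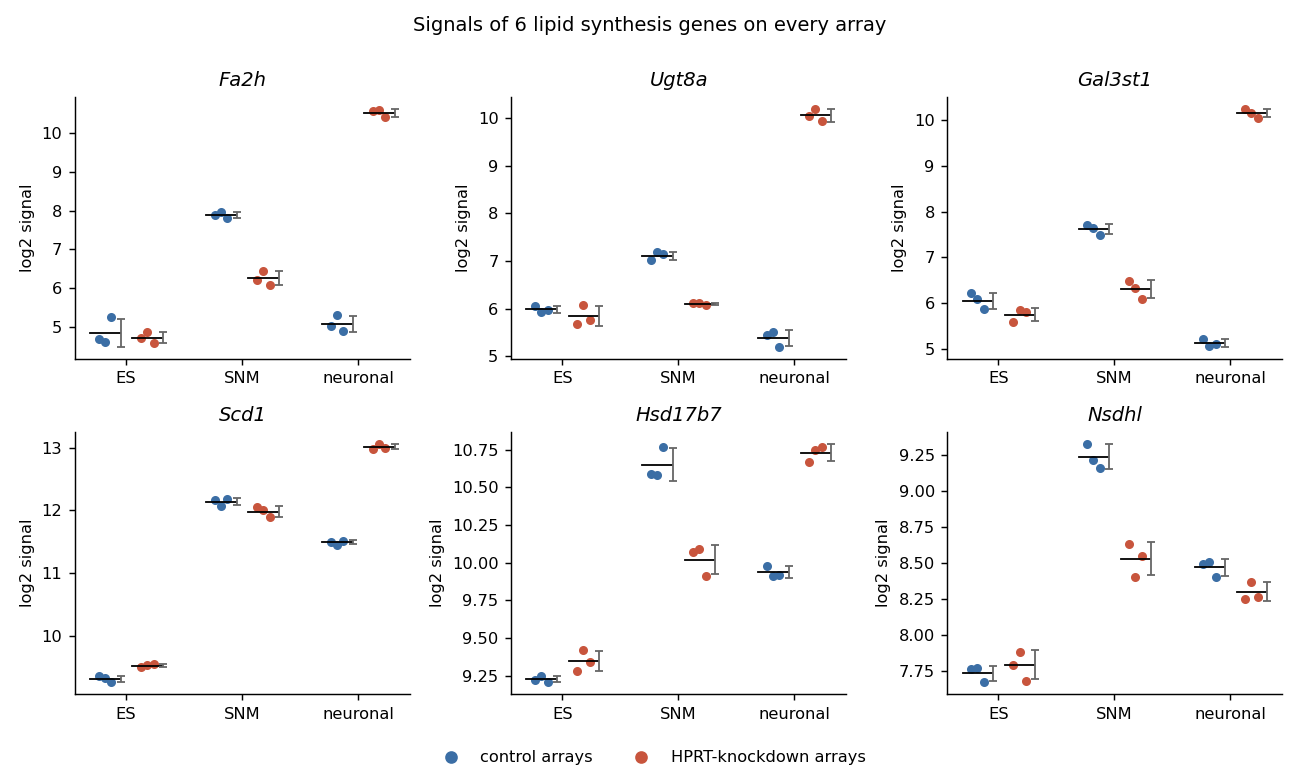
Log2 signals of Fa2h, Ugt8a, Gal3st1, Scd1, Hsd17b7 and Nsdhl on each of the 18 arrays, by stage, in control (blue) and HPRT-knockdown cells (red); black lines are means, grey bars are SDs of 3 arrays of 1 RNA pool, and the vertical axes differ in range. In control cells the myelin genes are highest in SNM (Fa2h mean 7.89), and in knockdown cells they are highest at the neuronal stage (Fa2h mean 10.53).

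Markers of cell types differed between the same conditions, and their part in the lipid results was not tested. In neuronal cells 16 of 17 tested oligodendrocyte markers, of 19 listed, were called higher in knockdown cells, Opalin, Mag, Enpp6 and Mbp by log2 changes of 7.14, 6.57, 6.46 and 5.93. Their summed signal over 19 genes was 12803 to 13451 on control and 102462 to 107896 on knockdown arrays. In SNM 8 of 16 tested were called lower and 3 higher, and the sums were 19409 to 20042 in control and 13610 to 14432 in knockdown cells. At the ES stage none of 8 tested was called, the sums were 872 to 984 and 880 to 894, and the defining genes Mog, Sox10, Olig2 and Opalin were detected on no array. Ermn was detected on no array of the series. The sums were thus lower in knockdown SNM and higher in knockdown neuronal cells, as were the 3 myelin enzymes, but in control neuronal cells the sums lay above those of ES cells, where Ugt8a and Gal3st1 lay below theirs.

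Skeletal muscle markers went the other way at the neuronal stage, where 13 of 14 (92.9%, against 13.5% of all probes) were called lower in knockdown cells. Their summed signal was 88235 to 89763 on control and 510 to 655 on knockdown arrays, and Ckm, Tnnt3, Myog and Myod1 were detected on 3 of 3 control and 0 of 3 knockdown arrays. In SNM 10 of 13 tested were called higher in knockdown cells, with sums of 1899 to 1955 in control and 3505 to 3810 in knockdown cells. At the ES stage 1 of 7 tested was called lower, with sums of 1808 to 1974 and 1844 to 2097.

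Neuron markers were lower in knockdown cells at the neuronal stage for 8 of 12 tested, with sums of 15493 to 17146 in control and 8902 to 10312 in knockdown cells, and in SNM 3 were called higher and 3 lower of 12, with sums of 10386 to 11427 and 10978 to 11844. Of 13 astrocyte and radial glia markers, 8 were called higher in knockdown SNM (sums of 22887 to 24230 and 37648 to 38715), and 6 were called higher and 2 lower at the neuronal stage (21665 to 22487 and 26895 to 27694). In ES cells 2 of 9 tested astrocyte and radial glia markers were called lower in the knockdown (22.2%, sums of 7645 to 8095 and 6890 to 7345). No tested neuron, fibroblast or pluripotent cell marker was called there. Of 10 fibroblast and feeder cell markers, 3 were called higher in knockdown SNM (sums of 6944 to 7544 and 8349 to 9813) and 6 lower at the neuronal stage (21339 to 24597 and 11417 to 14724). Pluripotent cell markers, 9 measured, were called lower for 5 of 8 tested in SNM (4765 to 5158 and 3228 to 3387) and 7 of 8 at the neuronal stage (3847 to 4041 and 1109 to 1184).

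Some defining markers of other lipid-making cell types were not detected at all. Of 8 measured markers of Schwann cells and neural crest, 5 were detected on all arrays of every condition, while the defining gene Erbb3 was detected on none. Of the 5 tested, 1 (20%) was called lower in knockdown ES cells, 2 (40%) in knockdown SNM and 1 (20%) at the neuronal stage. Over all probes these shares were 1.17%, 8.90% and 13.5%. The sums were 2582 to 2704 in control and 2212 to 2429 in knockdown neuronal cells. Of 6 measured adipocyte markers, Fabp4 and Cidec were detected on no array. Adipoq, by contrast, was detected on 3 of 3 arrays of control SNM, knockdown SNM and control neuronal cells. It was detected on 0 of 3 knockdown neuronal arrays. At the neuronal stage 1 of 3 adipocyte markers tested (Pparg) was called lower (33.3%, against 13.5% of all probes), and the sums were 175 to 188 and 140 to 173. Of 6 hepatocyte and visceral endoderm markers, Alb, Afp and Apob were detected on no array, 2 of 3 tested (Ttr and Apoa1) were called higher in knockdown SNM (sums of 166 to 177 and 484 to 517), and 1 of 2 was called higher at the neuronal stage (198 to 212 and 235 to 270).

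**Figure D3:**
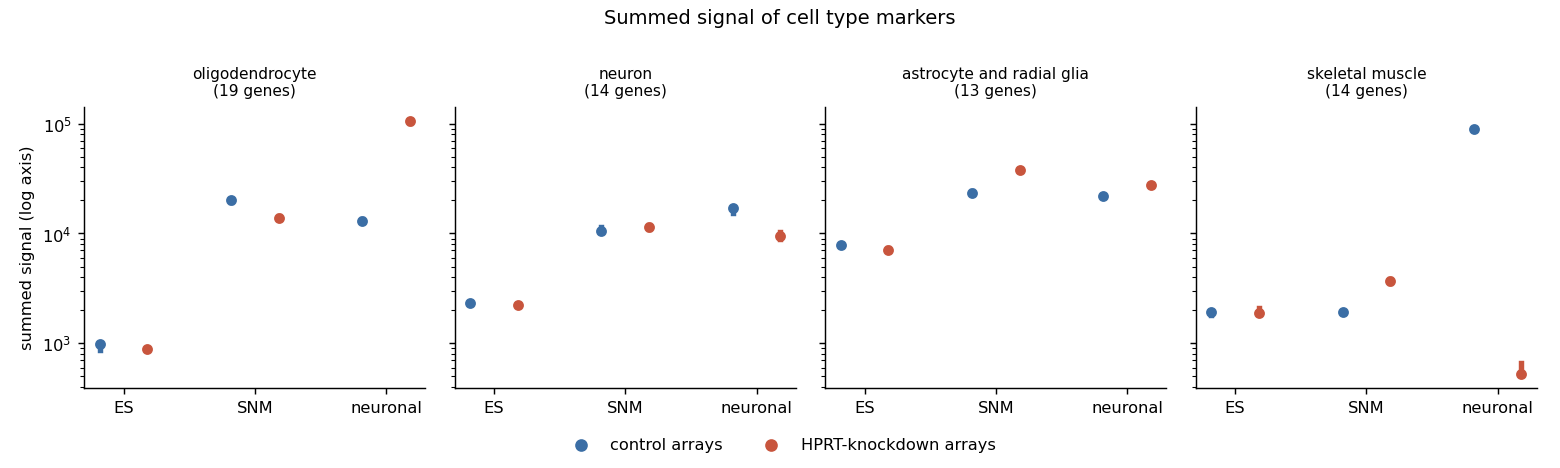
Summed signal, on the linear neqc scale drawn on a log axis, of the oligodendrocyte, neuron, astrocyte and radial glia, and skeletal muscle markers in control (blue) and HPRT-knockdown cells (red) at each stage; points are the median of 3 arrays and thick bars span the lowest to the highest array. At the neuronal stage the oligodendrocyte sums are 102462 to 107896 in knockdown cells against 12803 to 13451 in control cells, and the muscle sums are 510 to 655 against 88235 to 89763.

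How the lipid genes moved from stage to stage was compared within each cell type. From ES cells to SNM, 23 of 34 lipid genes (67.6%) were called higher in control cells, against 23.7% of all probes, and none lower, against 25.4%. In knockdown cells 13 of 34 (38.2%) were called higher, against 26.4%, and none lower, against 30.9%. At an unadjusted p under 0.05 without a minimum fold, 0 were lower in control and 3 in knockdown cells, and the methods' t-test called 0 lower in each. Over the tested lipid genes the median step was 0.95 on the log2 scale in control cells and 0.39 in knockdown cells, beside -0.08 and -0.11 over all probes.

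The rise was broad in control cells, where 13 of 16 sterol enzymes (81.2%) were called higher, against 23.7% of all probes. It was led by Acat2 (log2 change 1.62), Sc5d (1.52), Nsdhl (1.51) and Hsd17b7 (1.42). In knockdown cells 7 of 16 (43.8%) were called, against 26.4%. The same named genes changed there by 0.88 (Acat2), 1.57 (Sc5d), 0.74 (Nsdhl) and 0.67 (Hsd17b7). All of them were thus called higher in both cell types, with a smaller rise in knockdown cells except for Sc5d. The desaturases rose in both, Scd1 by 2.83 in control and 2.46 in knockdown cells, Scd2 by 2.32 and 2.45, Fads2 by 2.04 and 2.47 and Fads1 by 1.90 and 1.90. Fa2h rose by 3.04 in control and 1.52 in knockdown cells, from ES signals detected on 1 of 3 arrays each.

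From SNM to the neuronal stage the cell types moved apart. In control cells 19 of 34 (55.9%) were called lower, against 15.1% of all probes, and none higher, against 14.3% (2 higher at an unadjusted p under 0.05, and 0 by the methods' t-test). They included 10 of 16 sterol enzymes, such as Lss (-1.65) and Mvd (-1.03), and all 3 myelin enzymes, Fa2h (-2.81), Gal3st1 (-2.48) and Ugt8a (-1.73). In knockdown cells 8 of 35 (22.9%) were called higher, against 13.8%, and 2, Lss (-0.64) and Acly (-0.78), were called lower (5.71%), against 14.8%. The 8 were Fa2h (4.28), Ugt8a (3.96), Gal3st1 (3.84), Elovl7 (at least 7.42-fold), Insig2 (1.05), Scd1 (1.04), Elovl1 (0.72) and Hsd17b7 (0.71). The medians were -0.67 in control and 0.07 in knockdown cells, beside -0.07 and -0.02 over all probes.

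**Figure D4:**
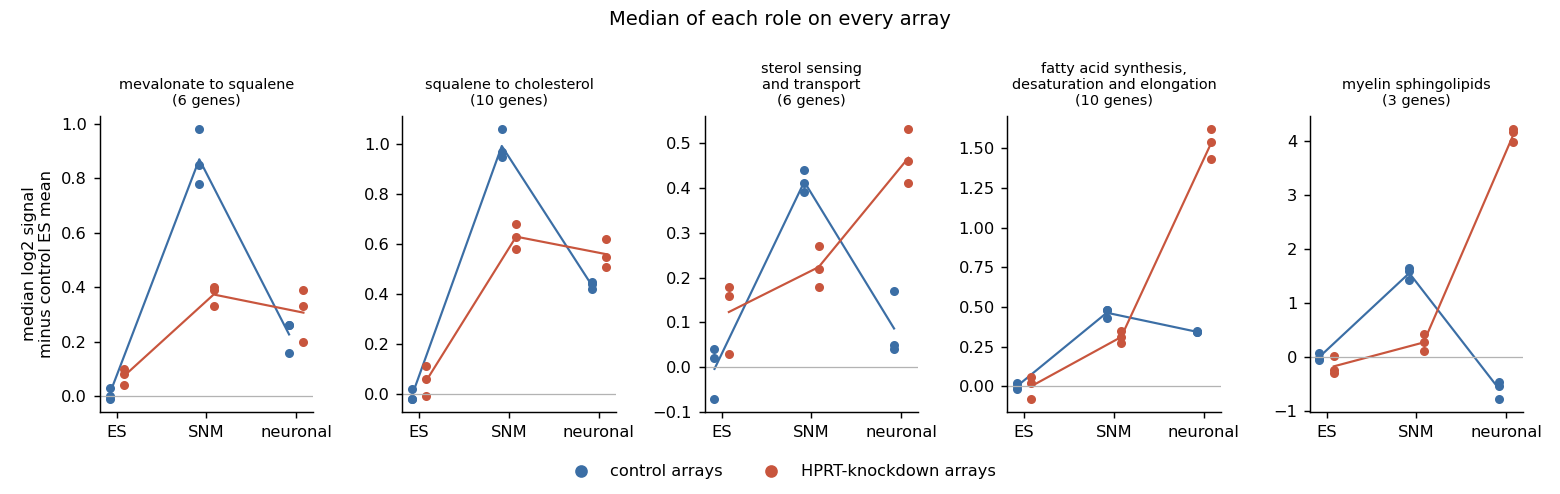
Median log2 signal of the genes of each role on each array, after subtracting each gene's mean over the control ES arrays, in control (blue) and HPRT-knockdown cells (red); points are arrays, lines join the means of 3 arrays, and the vertical axes differ in range. The enzymes from squalene to cholesterol peak in SNM in control cells (0.95 to 1.06) and lie between 0.51 and 0.68 in knockdown SNM and neuronal cells, and the fatty acid role is at 1.43 to 1.62 in knockdown neuronal cells against 0.34 to 0.35 in control cells.

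Whether knockdown and control cells differed more at one stage than at another was tested directly, as a difference of differences. Between the ES and SNM stages, it moved down by at least 1.5-fold for 13 of 34 lipid genes (38.2%), against 9.61% of all probes, and up for none, against 11.7% (limma; 1 at an unadjusted p under 0.05). Of these 13, 7 were sterol enzymes, Acat2, Mvk, Mvd, Cyp51, Nsdhl, Hsd17b7 and Ebp, with differences between -0.87 and -0.65. Between the SNM and neuronal stages it moved up for 20 of 35 (57.1%), against 13.7% of all probes, and down for none, against 14.8% (1 at an unadjusted p under 0.05). Of these 20, 8 were sterol enzymes, 3 were of sterol sensing and transport, 6 were fatty acid enzymes and 3 were myelin enzymes. Both differences use the same SNM arrays, so that a deviation of these arrays would enter both with opposite sign. The degree of Hprt1 knockdown also differed between stages and was smallest in SNM, and its part in these differences was not tested. Of 34 genes tested at both later stages, 20 were lower in knockdown SNM and higher in knockdown neuronal cells by sign (58.8%), against 23% of all probes tested at both stages, and 4, Hsd17b7, Fa2h, Ugt8a and Gal3st1, were called so at both (11.8%), against 0.882%.

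Other genes of lipid metabolism gave a mixed picture. For comparison with the lists below, 11% of all probes were called higher and 8.90% lower in knockdown SNM. The shares of all probes at the neuronal stage were 13.9% higher and 13.5% lower. Several of the list shares lie near these. Of 4 further sterol enzymes, Lbr, a sterol 14-reductase of the nuclear envelope, was called lower in knockdown cells at both later stages (-0.84 and -0.88, adjusted p = 3.15e-09 and 6.70e-10), and the median of the 3 tested was -0.52 in SNM and -0.33 at the neuronal stage. Of the genes for uptake, storage and efflux of cholesterol, 6 of 19 tested (31.6%) were called higher and 2 (10.5%) lower in knockdown SNM. At the neuronal stage 8 of 18 (44.4%) were higher and 1 (5.56%) lower. Apoe, the main lipid carrier of the brain, was higher by 2.88 and 3.00 on the log2 scale (adjusted p = 4.12e-14 and 4.21e-15). Apoe had the same direction in SNM and in neuronal cells, which Hsd17b7 and the myelin enzymes did not.

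Of other fatty acid and glycerolipid genes, 5 of 26 (19.2%) were called higher and 3 (11.5%) lower in knockdown SNM. The shares of all probes there were 11% and 8.90%. At the neuronal stage 8 of 24 (33.3%) were higher and 4 (16.7%) lower. Among these, Dgat2 (1.94) and Fabp5 (1.80) were higher and Lpl, lipoprotein lipase, was lower (-2.37). Fatty acid oxidation went up in knockdown SNM for 7 of 15 genes (46.7%) and down for none, among them Acaa2 with 0.85. At the neuronal stage 3 of 16 (18.8%) were higher and 3 (18.8%) lower, Cpt1b, the muscle form of carnitine palmitoyltransferase, with -1.55. Of other sphingolipid genes, 3 of 24 (12.5%) were called higher and none lower in knockdown SNM. At the neuronal stage 8 of 23 (34.8%) were higher and 2 (8.7%) lower. Among these, Gltp, a glycolipid transfer protein (2.79), and Arsa, the lysosomal sulfatase that degrades sulfatide (0.87), were both higher. Of ether lipid genes none of 5 was called in SNM and 1 (20%), Far1 (0.68), was higher at the neuronal stage. Of genes that use isoprenoids none of 13 was called in SNM, and 3 (23.1%) were higher and 2 (15.4%) lower at the neuronal stage. None of the genes on these lists was called at the ES stage, where 0.516% of all probes were called higher and 1.17% lower.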

How the data were processed

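Illumina MouseWG-6 v2 BeadChips measured 18 arrays, 3 for each of 6 conditions, from 1 pooled RNA per condition. The authors deposited bead-averaged signal intensity for 45281 probes, not normalized, as quantified with Illumina's BeadArray software, and with it the detection p-value of each probe on each array. A second deposited table served for probe symbols; its 72 value columns carry chip positions that no label pairs with a sample and were not used. Samples were grouped by their titles.

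Intensities were corrected and quantile normalized on the log2 scale with neqc (limma 3.58.1, R 4.3.3, offset 16, negative controls inferred from detection p-values). A 6-condition linear model was fitted over all 18 arrays and moderated with eBayes. A probe was tested where its detection p was under 0.05 on all 3 arrays of at least 1 compared condition. The procedure was tested on simulated data. A probe undetected on one side was given an "at least" fold against the detection limit.

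The genes named are the 40 lipid genes, other lipid genes and cell type markers by list; these members and lists were chosen with earlier results of these data known. Deviations of same-numbered control and knockdown arrays had correlations of 0.52, 0.11 and 0.51 in SNM. They were -0.13, -0.01 and 0.11 in ES and 0.64, 0.09 and 0.35 in neuronal arrays. No label states that the number pairs arrays, so the main fit was unpaired and a replicate block was an alternative. The alternatives covered background, scaling, detection filter, fold minimum, variance model, arrays fitted, the methods' t-test, the replicate block, probe averaging and leaving out each array. Arrays of 1 pool measure technical spread only, and their number limits the precision. An exact permutation test of 3 against 3 arrays cannot pass 0.05, so model p-values are given. The share of promoters over detected genes was added after seeing the data. Single values of 3 genes on the marker and pathway lists are not reported here.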

Additional observations from a re-analysis of the deposited data

Results flagged for a closer look

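The knockdown effect differed between stages for the genes given here, each by the contrast of the effects in limma and each past 1.5-fold on the difference. From the ES to the SNM stage the effect moved down on the log2 scale for the sterol enzymes Acat2 (-0.74), Mvk (-0.65), Mvd (-0.87), Cyp51 (-0.65), Nsdhl (-0.77), Hsd17b7 (-0.75) and Ebp (-0.68). It also moved down for the sterol genes Srebf2 (-0.84) and Stard4 (-0.75), for the elongase Elovl6 (-0.60) and for the myelin enzymes Fa2h (-1.52), Ugt8a (-0.87) and Gal3st1 (-0.99). Fa2h was not detected on all ES arrays of either cell type, so that its ES effect rests on signals near background. From the SNM to the neuronal stage the effect moved up for the sterol enzymes Mvk (0.81), Pmvk (0.80), Mvd (1.07), Lss (1.01), Cyp51 (0.82), Tm7sf2 (0.67), Hsd17b7 (1.42) and Dhcr7 (0.92). The genes of sterol sensing and transport that moved up were Srebf2 (0.70), Insig2 (0.60) and Stard4 (1.00). The fatty acid enzymes that moved up were Scd1 (1.69), Scd2 (0.93), Elovl5 (0.76), Elovl6 (0.70), Elovl7 (3.34) and Fads1 (0.59), where Elovl7 was not detected on all arrays of any SNM condition. The myelin enzymes moved up most, Fa2h (7.09), Ugt8a (5.69) and Gal3st1 (6.32). Both sets of differences share the SNM arrays, and no group held enough arrays for a search for single deviating arrays.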

How the results depend on the processing

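Of 28 changes of lipid genes called between knockdown and control cells at a stage, 13 alternatives other than leaving out arrays gave 364 values, of which 325 kept the call, 39 lost it and 0 reversed. With 1 array left out, 153 of 168 kept it and 15 lost it. With a minimum of 2-fold, the genes called lower in knockdown SNM numbered 3, those at the neuronal stage 6 higher and 0 lower, those from ES to SNM 14 higher in control and 7 in knockdown cells, those from SNM to neuronal cells 5 lower in control and 0 lower in knockdown cells, and the differences between stages 1 lower (SNM minus ES) and 8 higher (neuronal minus SNM). With no minimum fold the counts of higher and lower genes were 2 and 1 (ES), 4 and 21 (SNM), 23 and 4 (neuronal), 23 and 3 (ES to SNM, knockdown), 14 and 9 (SNM to neuronal, knockdown) and 1 and 20 (SNM minus ES), 2 were higher from SNM to neuronal cells in control cells, and 1 moved down for neuronal minus SNM. Averaging a gene's probes gave a median of 0.86 from ES to SNM in control cells and of -0.39 for SNM minus ES, and 1 gene lower from ES to SNM in knockdown cells. From ES to SNM in control cells the median was 0.80 with an offset of 50, 0.75 with quantile normalization alone and 0.72 with scaling to the 75th percentile. From SNM to neuronal cells it was -0.60 with the offset and -0.59 with quantile normalization in control cells, and 1 gene was lower in knockdown cells with quantile normalization or the 75th percentile. The latter also gave 8 genes higher and a median of 0.22 from ES to SNM in knockdown cells. The cause of these shifts was not tested.

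Leaving out 1 array at a time gave 11 to 14 genes lower and 0 to 1 higher in knockdown SNM, the 1 being Srebf1 without control SNM array 1, knockdown SNM array 1 or knockdown SNM array 3. At the neuronal stage it gave 13 to 15 higher and 1 lower. The medians ran from 0.90 to 0.97 from ES to SNM in control cells and from -0.70 to -0.59 from SNM to neuronal cells in control cells. With the replicate block, which pairs arrays by number, 13 genes were lower in SNM, 14 were higher and 1 lower at the neuronal stage, and no other call changed. The methods' t-test with Benjamini-Hochberg adjustment gave 12 lower in SNM, without Srebf2 (adjusted p = 0.0706). Requiring detection on all 18 arrays left Fa2h, Elovl7 and Srebf1 untested. The calls of Mvk, Srebf1 and Tm7sf2 at the neuronal stage were lost with an offset of 50, with quantile normalization alone and with the 75th percentile, and the part of signal over background in this was not tested.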
